A study of Mus musculus with 24 samples.

Results

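The 10 genes described here, chosen with earlier results of these data known, encode the MHC class II antigen presentation machinery. They were taken by symbol from a table of 54429 genes. They are the class II chains H2-Aa, H2-Ab1 and H2-Eb1, the invariant chain Cd74, the peptide loading genes H2-DMa, H2-DMb1, H2-DMb2, H2-Oa and H2-Ob, and the transactivator Ciita. All 10 symbols were found, and 8 passed the filter on low counts and were tested. H2-Oa and H2-Ob did not pass it and are given as counts.

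RNA was sequenced in 24 libraries of bone marrow macrophages, 6 for each of 4 groups. The mice were of the C57BL/6N strain and either wild type (WT) or knockout (KO) for MK2, the stress-activated kinase MAPKAP kinase-2 encoded by Mapkapk2. Marrow from femurs and tibias was cultured with 10 ng/ml M-CSF, the growth factor that drives macrophage differentiation, and the cells were moved to fresh plates on day 7. M0 cells then received no stimulus, and M2 cells received 10 ng/ml interleukin-4 (IL-4), with harvest 24 h later. The sources used here do not say how the knockout was made or which libraries came from separate animals, and the p-values therefore measure only how these libraries vary, which may be technical. In bulk RNA of this kind, fewer cells of a type and less RNA per cell cannot be told apart.

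Class II molecules carry peptides from ingested proteins to the surface of antigen-presenting cells, where CD4+ T cells read them. An alpha and a beta chain (H2-Aa with H2-Ab1 in the I-A molecule of mice) assemble on the invariant chain, lysosomal proteases remove it, and the H2-DM heterodimer exchanges its last fragment for peptide, with H2-O acting as a modulator of H2-DM. Ciita binds no DNA itself and acts on class II promoters through factors that hold the X box and the Y box, the latter an inverted CCAAT element bound by NF-Y. In macrophages class II is known as an inducible system, with interferon gamma its best known inducer and IL-4 another. Mice of the C57BL/6 background carry a defective H2-Ea gene, so H2-Eb1 has no alpha chain partner there, and the H2-Ea pseudogene had 0 counts in all 24 libraries (3 counts over all libraries would be 0.0128 CPM, that is, the count as a rate of the TMM-scaled library size).

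The promoters were read from RefSeq windows on the mouse build GRCm38.p6 (mm10), which held 7 of the 10 genes: H2-Aa, H2-Eb1, H2-DMa, H2-DMb1, H2-DMb2, H2-Oa and H2-Ob. The stretches below are shown because they carry both boxes in a gene of the I-A molecule, in H2-Eb1 and in H2-Ob, that is, in genes at opposite ends of the range of levels. Capitals mark first the pattern CNNGNAAC, taken here for the core of the X box, and then GATTGG, the inverted CCAAT of the Y box.
H2-Aa: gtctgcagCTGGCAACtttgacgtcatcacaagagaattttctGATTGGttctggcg
H2-Eb1: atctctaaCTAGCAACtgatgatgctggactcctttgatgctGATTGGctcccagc
H2-Ob: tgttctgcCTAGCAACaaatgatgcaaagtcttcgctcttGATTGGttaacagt
The H2-Aa stretch is chr17:34287859-34287915 on the minus strand, just upstream of a gene at 34282744 to 34287823. The H2-Eb1 stretch is chr17:34305765-34305820 on the plus strand, where an exon of the opposite-strand gene Gm20513 also lies, and the gene starts at 34305867. The H2-Ob stretch is chr17:34238807-34238860 on the plus strand, upstream of a start at 34238903.

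The first letter of GATTGG lay 49 bases before the RefSeq start in H2-Aa, 60 before it in H2-Eb1 and 58 before it in H2-Ob. The X pattern followed by the Y core, with 24 to 27 bases between, was present in 5 of the 7 genes: these 3, H2-DMb1 and H2-Oa. Among 32851 RefSeq windows of 250 bases upstream of a start, from 27025 genes, 0.304% held that pair on either strand at a spacing of 15 to 40 bases. GATTGG alone was in 14.6% of windows and CNNGNAAC alone in 33.3%. The X pattern was written after these sequences had been seen, and a match is a description of letters, not of binding. The pair is found in H2-Aa, among the highest of the 10 genes, and in H2-Oa, the lowest. The H2-DMb1 stretch, at chr17:34153086-34153142, overlaps an exon of H2-DMb1 itself, past a gene start at 34153072. The H2-Oa stretch, at chr17:34092292-34092340, overlaps an exon of the opposite-strand gene BC051537 and ends on the first base of H2-Oa.

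Total counts per library ranged from 7893809 to 13492507. The labels number the libraries, and replicates 1-3 and 4-6 of the groups have separate runs of library numbers, with WT M0 replicate 3, WT M2 replicate 2 and KO M2 replicate 2 numbered apart from both runs. The sources used here do not say what distinguishes the sets, and differences in the 8 tested class II genes are given over 6 libraries a group and within each set. Mapkapk2 was between 100.3 and 139 CPM in the WT libraries and between 47.8 and 63.4 in the KO libraries, with no overlap. All 8 macrophage markers examined, among them Adgre1, Csf1r, Cd68 and Lyz2, were present in every library, with a summed level of 12067 to 19293 CPM.

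Genes were compared with each other on the authors' GETMM values, in which counts are divided by gene length. Cd74 was the highest of the 10 genes in every group, with a mean of 91.7 ± 38.3 (SD, n = 6) in WT M0 and 364 ± 130 in KO M2. H2-Aa followed at 38.5 ± 15.8 in WT M0 and 143 ± 59.6 in KO M2. Next in WT M0 were H2-Ab1 at 22.3 ± 9.46, H2-DMb1 at 21.6 ± 4.14, H2-Eb1 at 17.5 ± 7.68 and H2-DMa at 12.4 ± 2.11. Their ranges overlapped, except that H2-DMa (highest 15.07) lay below H2-DMb1 (lowest 15.67). H2-DMb2 at 1.56 ± 0.65 and Ciita at 0.51 ± 0.18 were far lower, and H2-Ob at 0.55 ± 0.34 overlapped Ciita there. The lowest was H2-Oa, at 0.044 ± 0.069.

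**Figure D1:**
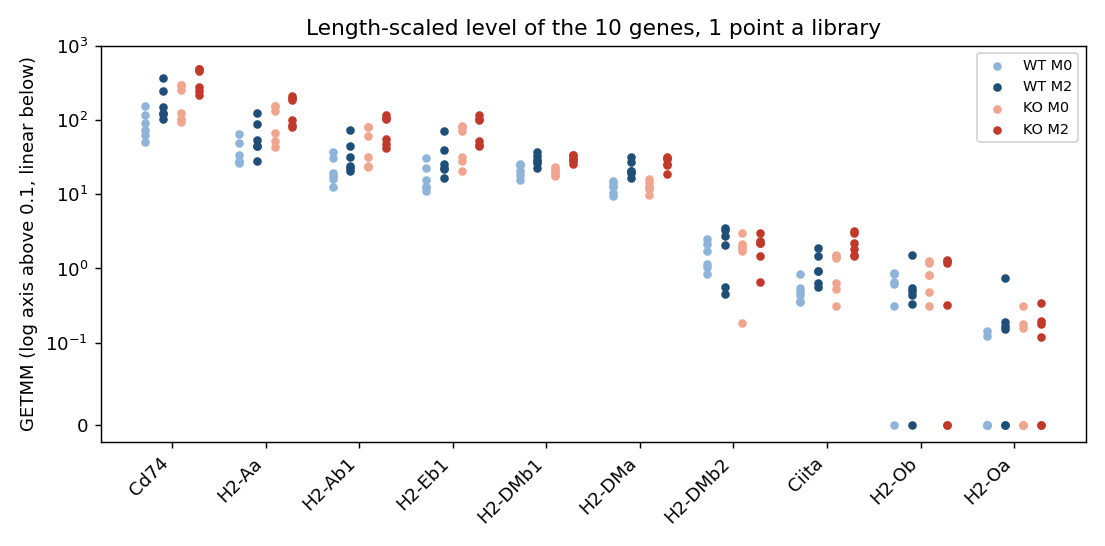
GETMM value (vertical axis, log scale above 0.1 and linear below) of the 10 genes, with 1 point for each of the 24 libraries and a colour for each group. Cd74 is highest in every group (means 91.7 in WT M0 to 364 in KO M2) and H2-Oa lowest, with points at 0.

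The chains kept similar ratios to each other. Across the 24 libraries H2-Aa varied 8.01-fold between its lowest and highest CPM and H2-Ab1 9.20-fold, while the ratio of H2-Aa to H2-Ab1 stayed between 1.28 and 2.12. The ratio of H2-Eb1 to H2-Ab1 stayed between 0.785 and 1.34, and that of Cd74 to H2-Ab1 between 4.30 and 6.56. Ciita varied 10.3-fold and H2-Eb1 10.6-fold. By contrast H2-DMb1 varied 2.29-fold and H2-DMa 3.33-fold over the same libraries.

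H2-Aa, the alpha chain of I-A, was at 28.5, 37.1 and 15.6 CPM in WT M0 replicates 1-3 and at 19.6, 15.4 and 14.7 in replicates 4-6. In WT M2 it was at 49.9, 69.0 and 25.4 in replicates 1-3 and at 30.3, 16.1 and 25.4 in replicates 4-6. Wild-type replicates 1 and 2 were thus the highest of their groups in both states.
In KO M0 it was at 37.0, 24.0 and 29.1 CPM in replicates 1-3 and at 85.8, 85.4 and 75.8 in replicates 4-6. In KO M2 it was at 56.0, 49.0 and 45.2 in replicates 1-3 and at 111, 118 and 106 in replicates 4-6. The 6 KO libraries of replicates 4-6 stood above every WT library, whatever the state.

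Ciita, the transactivator, showed the same arrangement within each state, at a much lower level. It was at 1.63, 2.47 and 1.25 CPM in WT M0 replicates 1-3 and at 1.46, 1.06 and 1.04 in replicates 4-6, against 1.86, 0.90 and 1.51 and then 3.97, 4.16 and 4.45 in KO M0. With IL-4 it was at 4.24, 5.42 and 2.72 and then 2.65, 1.62 and 1.83 in WT, against 5.24, 4.24 and 4.39 and then 9.26, 8.85 and 6.49 in KO. In replicates 4-6 the KO libraries lay above the WT libraries in each state, and in replicates 1-3 the genotypes overlapped. Unlike for H2-Aa, KO M0 replicates 4-6 lay below WT M2 replicate 2.

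H2-Ab1, H2-Eb1 and Cd74 were alike within each state. H2-Ab1, the beta chain of I-A, had a lowest, median and highest value of 7.70, 11.4 and 22.7 CPM in WT M0, 12.6, 16.8 and 44.8 in WT M2, 13.7, 28.2 and 48.3 in KO M0, and 25.4, 48.8 and 70.8 in KO M2. H2-Eb1 ran from 7.39 to 20.9 CPM in WT M0 and from 13.6 to 54.8 in KO M0. Cd74, the invariant chain, ran from 36.9 to 113 CPM in WT M0 and from 66.7 to 216 in KO M0. For all 3 genes the 6 KO values of a state spread over the upper part of the WT range and beyond it.

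**Figure D2:**
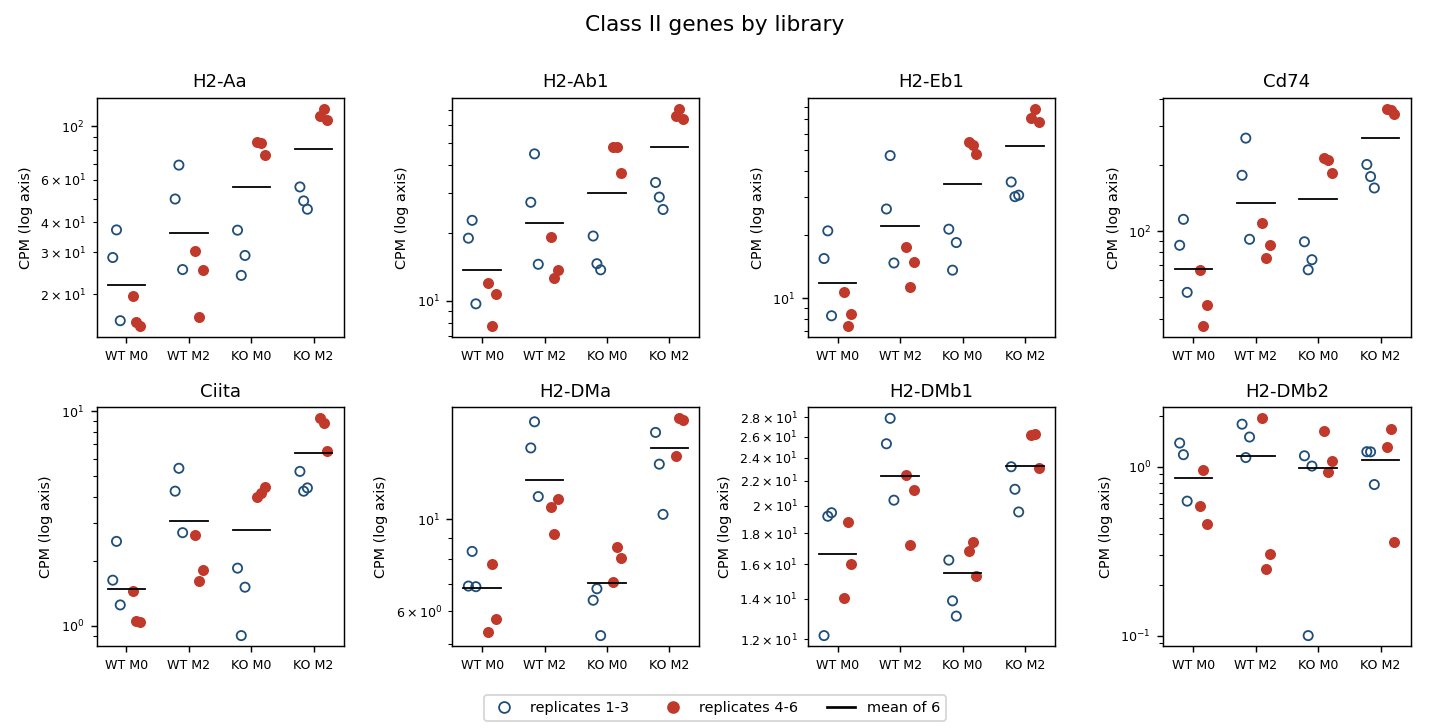
CPM (log axis) of the 8 tested genes by group, with open circles for replicates 1-3, filled circles for replicates 4-6 and a bar at the mean of 6. For H2-Aa, H2-Ab1, H2-Eb1, Cd74 and Ciita the filled circles lie below the open ones in most WT libraries and above all of them in KO, while H2-DMa and H2-DMb1 differ mainly between M0 and M2.

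In the main fit, which pairs no libraries, IL-4 raised Ciita, H2-DMa and H2-DMb1 in both genotypes. In WT, 3 of the 8 tested genes rose and none fell, where 16.4% of the 12797 genes tested passed the same threshold and 8.49% did so upward (edgeR quasi-likelihood test, Benjamini-Hochberg adjusted p below 0.05). H2-DMa, the alpha chain of the peptide editor, rose from 6.84 ± 1.16 to 12.4 ± 2.97 CPM (SD, n = 6; log2 fold change 0.86, SE 0.16, edgeR adjusted p = 0.000281), with every M2 library above every M0 library, as for 4.75% of all genes. H2-DMb1, its beta chain, rose from 16.6 ± 3.03 to 22.4 ± 3.78 CPM (log2 0.43, SE 0.12, edgeR adjusted p = 0.0131), with overlapping ranges. Ciita rose from 1.48 ± 0.54 to 3.08 ± 1.47 CPM (log2 1.07, SE 0.37, edgeR adjusted p = 0.0471), and this call was lost in 11 of the 24 fits that left out 1 library and in 5 of 10 alternatives, over which the adjusted p ran from 0.00114 to 0.194.

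In KO, these 3 genes rose too, where 23.6% of all genes passed and 12.2% rose. H2-DMa went from 7.02 ± 1.19 to 14.8 ± 2.75 CPM (log2 1.07, SE 0.16, edgeR adjusted p = 9e-06) and H2-DMb1 from 15.5 ± 1.68 to 23.3 ± 2.69 CPM (log2 0.59, SE 0.12, edgeR adjusted p = 0.000615). For both genes the lowest M2 library was above the highest M0 library, as for 8.17% of all genes. Ciita went from 2.81 ± 1.56 to 6.41 ± 2.20 CPM (log2 1.17, SE 0.34, edgeR adjusted p = 0.0111).

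Cd74 and the class II chains had positive log2 fold changes with IL-4. With the culture number of the labels as a block, 7 of 8 genes were called in each genotype, all but H2-DMb2. Of all genes, 20.5% were called in WT and 26.9% in KO under that block. In the main fit, which has no such block and gave the values below, Cd74 and the class II chains did not pass. In WT, Cd74 had a log2 fold change of 1.01 (SE 0.39, edgeR adjusted p = 0.0811) and H2-Eb1 one of 0.93 (SE 0.44, edgeR adjusted p = 0.169). In KO, Cd74 had 0.92 (SE 0.38, edgeR adjusted p = 0.0896). H2-Aa and H2-Ab1 lay between 0.52 and 0.74 in both genotypes. The median log2 fold change of the 8 tested genes was 0.80 in WT and 0.62 in KO, beside -0.02 and -0.00 over all genes tested. The genotypes' IL-4 responses did not differ by the interaction test for any of the 8 genes: log2 differences ran from -0.35 to 0.21, 0 of 8 had an unadjusted p below 0.05, and 0 were called by edgeR, DESeq2 or limma. Over all genes tested edgeR called 0 (0%) in that test, with 390 at an unadjusted p below 0.05. For the class II chains and Cd74 the SE of this difference in the main fit was between 0.54 and 0.59, so that only large differences could have been detected there. With the culture number as a block, the same difference passed for 0 of 8 genes (0.0156% of all genes called). Its median log2 value over the 8 genes was 0.06, with 0 at an unadjusted p below 0.05.

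**Figure D3:**
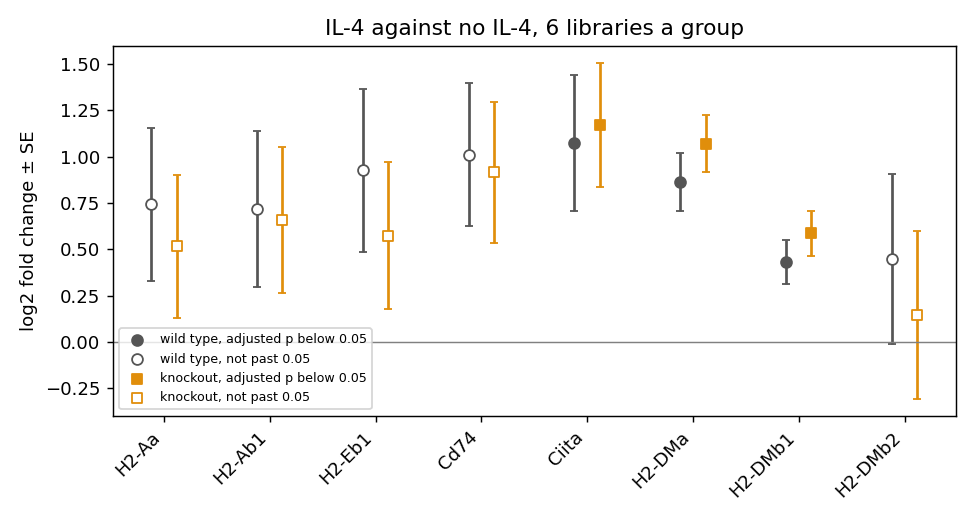
Log2 fold change with IL-4 (vertical axis, with SE) of the 8 tested genes over 6 libraries a group, circles for WT and squares for KO, filled where the edgeR adjusted p was below 0.05. Ciita, H2-DMa and H2-DMb1 are filled in both genotypes, and every point lies above 0.

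Within each set of 3 replicates the IL-4 difference kept its direction in nearly all of these genes. In replicates 1-3, 5 of 8 genes rose in WT (13.3% of all genes called, 6.85% higher) and 4 of 8 in KO (20.2% called, 11% higher), Cd74 among them in both, at log2 1.09 (SE 0.31, edgeR adjusted p = 0.023) and 1.22 (SE 0.31, edgeR adjusted p = 0.00829). The fifth in WT was H2-Eb1, at log2 1.03 (edgeR adjusted p = 0.0471). In replicates 4-6, 1 of 8 rose in WT (5.87% of all genes called, 3.19% higher), namely H2-DMa, and 3 of 8 in KO (13.3% called, 6.81% higher), namely Ciita, H2-DMa and H2-DMb1. The difference between the sets passed for 0 of 8 genes in WT (0.0156% of all genes called) and for 0 of 8 in KO (0%), with 0 members at an unadjusted p below 0.05 in either and 0 called by DESeq2. The only negative value was that of H2-DMb2 in KO replicates 4-6, -0.12 with SE 0.63.

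Class II RNA was higher in knockout than in wild-type cells of replicates 4-6, and no such difference passed in replicates 1-3. Over 6 libraries a group and without IL-4, H2-Eb1 was higher in KO than in WT, 34.8 ± 19.01 against 11.8 ± 5.29 CPM (SD, n = 6; log2 1.58, SE 0.43, edgeR adjusted p = 0.0383). It was the only one of the 8 to pass, where 4.52% of all genes passed and 1.1% were higher, and 5 of 8 had an unadjusted p below 0.05. H2-Aa was at 56.2 ± 29.2 against 21.8 ± 9.09 CPM (log2 1.38, SE 0.41, edgeR adjusted p = 0.0615). H2-Ab1 had a log2 fold change of 1.17, Cd74 of 1.07 and Ciita of 0.93, and none of the 8 had KO libraries all above the WT libraries, which 0.977% of all genes had. The H2-Eb1 call was lost in 8 of 24 fits that left out 1 library and in 4 of 9 alternatives, over which its adjusted p ran from 1.12e-08 to 0.843.

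With IL-4, 0 of 8 passed by edgeR, where 4.59% of all genes did, although 5 of 8 had an unadjusted p below 0.05. DESeq2 called 2 of 8 and limma on log2(GETMM + 1) called 1, where they called 705 and 567 of all genes. H2-Eb1 was at 52.3 ± 22.4 CPM in KO M2 against 22.01 ± 13.4 in WT M2 (log2 1.22, SE 0.41, edgeR adjusted p = 0.112). Ciita had a log2 fold change of 1.03 (SE 0.33, edgeR adjusted p = 0.0837). Without the 3 libraries numbered apart 4 of 8 passed, as they did without WT M2 replicate 2 alone. That library is 1 of those 3 and has the highest H2-Aa of the WT libraries. Over all genes these omissions gave 600 and 651 calls. None of the 8 had KO M2 libraries all above the WT M2 libraries, against 1.09% of all genes.

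Within replicates 4-6 the difference was large and tight. Without IL-4, 5 of 8 genes were higher in KO, where 2.93% of all genes were called in either direction and 0.555% were called higher. H2-Eb1 had a log2 fold change of 2.55 (SE 0.34, edgeR adjusted p = 9.81e-05), H2-Aa of 2.31 (SE 0.32, edgeR adjusted p = 0.000169), H2-Ab1 of 2.13 (SE 0.34), Cd74 of 2.02 (SE 0.32) and Ciita of 1.81 (SE 0.30). For these 5 genes the 3 KO libraries all lay above the 3 WT libraries, and 12.8% of all genes showed that separation. H2-DMa at 0.33 (SE 0.19) and H2-DMb1 at 0.02 (SE 0.16) did not pass.
With IL-4, 6 of 8 were higher, where 3.93% of all genes were called and 1.45% called higher. The same 5 had log2 fold changes of 1.96 to 2.31, and H2-DMa was the sixth, at 0.66 (SE 0.18, edgeR adjusted p = 0.0357). In that state the KO libraries lay above the WT libraries for 7 of 8 genes, against 13.4% of all genes, with H2-DMb2 the exception.

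Within replicates 1-3 no class II gene passed between the genotypes. Without IL-4, 0 of 8 passed by edgeR or DESeq2, with 0 at an unadjusted p below 0.05, although 8.6% of all genes were called there. H2-Aa had a log2 fold change of 0.17 (SE 0.32), H2-Eb1 of 0.28 (SE 0.34), Cd74 of -0.13 (SE 0.31) and Ciita of -0.31 (SE 0.32). With IL-4, 0 of 8 passed by edgeR or DESeq2, with 0 at an unadjusted p below 0.05 and 4.88% of all genes called. There H2-Aa had 0.05 (SE 0.30), H2-Ab1 0.00 (SE 0.31) and Cd74 -0.00 (SE 0.30).

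The test of the difference between the sets passed for the same 5 genes in both states. Without IL-4 the KO minus WT difference was larger in replicates 4-6 than in replicates 1-3 by a log2 value of 2.14 for H2-Aa, 2.22 for H2-Ab1, 2.27 for H2-Eb1, 2.15 for Cd74 and 2.12 for Ciita (SE 0.44 to 0.48, edgeR adjusted p = 0.0247 to 0.0285), where 1.81% of all genes passed and 0.672% were higher. With IL-4 the values were 2.16, 2.14, 2.19, 1.96 and 1.84 in the same order (SE 0.38 to 0.45, edgeR adjusted p = 0.0305 to 0.0413), where 0.781% of all genes passed and 0.344% were higher. H2-DMa had 0.59 and 0.78 (edgeR adjusted p = 0.329 and 0.145), H2-DMb1 had 0.27 and 0.51, and H2-DMb2 had 1.32 and 0.84. The median over the 8 genes was 2.13 without and 1.90 with IL-4, beside 0.01 and -0.00 over all genes tested.

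By edgeR these calls lay close to the threshold and rested on few libraries. In the 4 alternatives other than leaving out 1 library, all 5 genes were called each time without IL-4. With IL-4, H2-Eb1 was called in 4 of 4, and H2-Aa, H2-Ab1, Cd74 and Ciita in 3 of 4. DESeq2, 1 of these alternatives, called 5 of 8 genes in each state. Leaving out 1 library by edgeR gave fewer calls. Without IL-4, 0 of 8 passed when WT M0 replicate 2 or 5 or KO M0 replicate 2, 3, 4 or 6 was left out, 1 without WT M0 replicate 6 or KO M0 replicate 5, and 2 without WT M0 replicate 4. With IL-4, 0 passed without WT M2 replicate 1, 2, 5 or 6 or KO M2 replicate 2, 3, 4 or 5, and 1 passed without KO M2 replicate 6 or without all 3 libraries numbered apart. The size moved less: over the 24 fits H2-Aa ran from 1.84 to 2.44 without IL-4 and from 1.79 to 2.46 with it, and Cd74 from 1.87 to 2.42 and from 1.56 to 2.27. A plain difference between replicates 4-6 and 1-3, with the groups as terms, passed for 0 of 8 genes by edgeR or DESeq2, with 0 at an unadjusted p below 0.05, where 3.78% of all genes passed by edgeR. Its log2 values ran from -0.16 to 0.34.

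**Figure D4:**
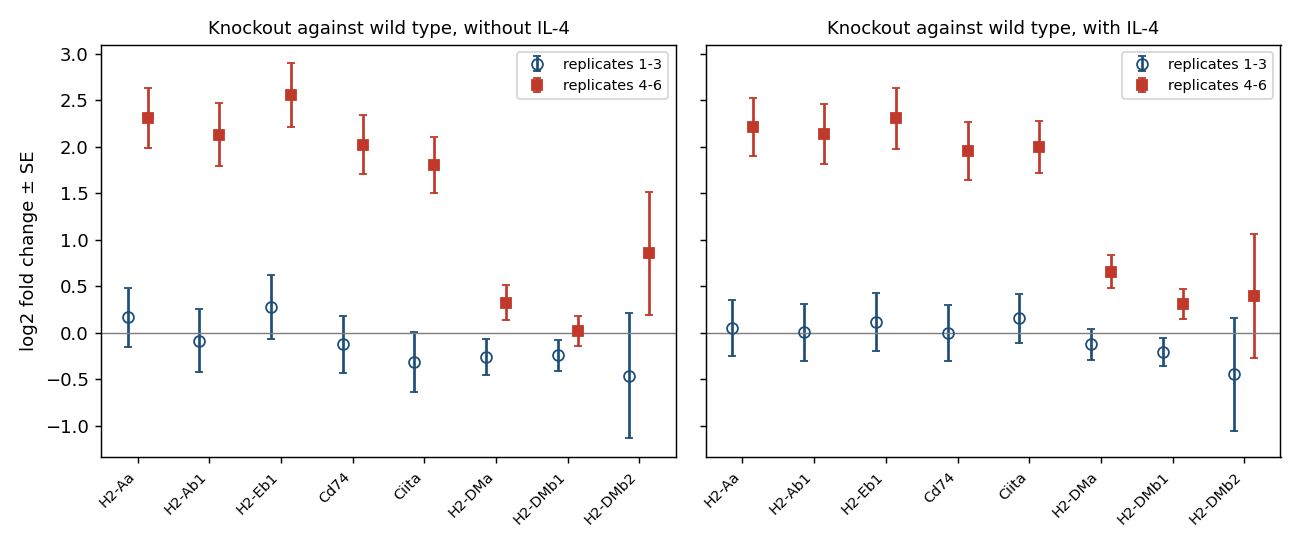
Log2 fold change of KO against WT (vertical axis, with SE) of the 8 tested genes, without IL-4 on the left and with IL-4 on the right, circles for replicates 1-3 and squares for replicates 4-6 (3 libraries a group each). H2-Aa, H2-Ab1, H2-Eb1, Cd74 and Ciita lie near 0 in replicates 1-3 and between 1.81 and 2.55 in replicates 4-6.

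H2-DMb2, H2-Oa and H2-Ob were near the limit of detection. H2-DMb2, the other H2-DM beta gene, had 1 to 19 counts a library and no change past the threshold in any of these comparisons. H2-Ob had 12, 12, 18 and 16 counts summed over WT M0, WT M2, KO M0 and KO M2, and H2-Oa had 2, 9, 4 and 5. A count of 0, found for H2-Oa in 11 of 24 libraries, allows up to 3 counts, or 0.234 to 0.391 CPM depending on the library. Reads were 40 bases long, and 32.2% of the 40-base windows of an H2-DMb1 transcript also occur in H2-DMb2, so the authors' division of reads between these neighbours is uncertain. H2-Oa shares exon bases with the opposite-strand gene BC051537, H2-DMa with Brd2 and other genes, H2-Eb1 with Gm20513, and Ciita with Dexi. The sources used here do not state a stranded protocol, and without one the reads of such pairs cannot be told apart.

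Among 13 factors known to act at class II promoters or upstream of Ciita, IL-4 raised 3 and lowered 1 in WT, where 8.49% of all genes rose and 7.95% fell. Irf4, a factor linked to alternative activation, rose (log2 2.04, edgeR adjusted p = 5.6e-06), as did Irf1 (0.93, edgeR adjusted p = 2.44e-05) and the NF-Y subunit Nfya (0.28, edgeR adjusted p = 0.00116). In KO 4 rose and 1 fell, where 12.2% of all genes rose and 11.4% fell. Irf4 rose there by a log2 value of 2.63 and Irf1 by 1.26. Between genotypes 0 of 13 passed without IL-4 by edgeR or DESeq2, with 2 at an unadjusted p below 0.05, Irf8 (-0.19) among them. With IL-4 Irf4 alone passed by edgeR (DESeq2 called 2), higher in KO, from 5.65 to 9.30 CPM against 2.13 to 4.77 in WT (log2 1.09, SE 0.23, edgeR adjusted p = 0.00292). The difference between the sets passed for 0 of 13 by edgeR in either state, with 2 at an unadjusted p below 0.05 without IL-4 and 3 with it, and DESeq2 called 1 and 0. Within replicates 4-6 and with IL-4, 2 of 13 were higher in KO, Irf4 (log2 1.68) and Irf1 (0.57), and 1 was lower. Of all genes, 1.45% were called higher there and 2.48% lower.

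Of 9 genes of class II antigen processing, 4 rose with IL-4 in WT and 5 in KO, and none fell. Of all genes, 8.49% rose in WT and 12.2% in KO. Ctsl, a cathepsin, rose by a log2 value of 0.71 in WT and 1.07 in KO, and Ctss, the main protease that trims the invariant chain, by 0.29 and 0.44. Ifi30, the lysosomal thiol reductase GILT, rose by 0.81 and 0.69. Without IL-4 Ctsl (-0.62, edgeR adjusted p = 0.00168) and the asparagine endopeptidase Lgmn (-0.47, edgeR adjusted p = 2.35e-05) were lower in KO, and with IL-4 Lgmn was (-0.37, edgeR adjusted p = 0.000491). Within replicates 1-3, 6 of 9 were lower in KO without IL-4 and 3 of 9 with it, where 4.75% and 2.94% of all genes were lower. Lgmn (-0.58 and -0.40), Ctsh (-0.63 and -0.48) and Ifi30 were among them in both states. Within replicates 4-6, Ctsl and Lgmn were the 2 lower ones in each state, where 2.38% and 2.48% of all genes were lower. Ctss (0.33) was higher there with IL-4, as were 1.45% of all genes. Ifi30 shared the set dependence of the class II chains but not their direction within each set. Its KO minus WT difference was larger in replicates 4-6 than in 1-3 by a log2 value of 1.00 without IL-4 (edgeR adjusted p = 0.0355) and 1.45 with it (edgeR adjusted p = 0.0104). Ifi30 was lower in KO in replicates 1-3 (-0.99 and -1.31), and its values in replicates 4-6 were 0.01 and 0.14. Ctsh passed that test without IL-4 only (0.59, edgeR adjusted p = 0.0438), with 0.44 and an adjusted p of 0.18 with it.

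MHC class I genes and genes known for induction by interferon gamma had no call between the genotypes by edgeR over 6 libraries a group, where the share over all genes was 4.52% without IL-4 and 4.59% with it. Of 14 class I presentation genes, 0 passed between KO and WT by edgeR or DESeq2, with 1 at an unadjusted p below 0.05 without IL-4 and 3 with it. For the difference between the sets 0 passed by edgeR or DESeq2, with 2 and 1 at an unadjusted p below 0.05. With IL-4, 6 rose in WT and none fell, led by the proteasome subunit Psmb10 (log2 1.20) and Tapbp, the tapasin gene (0.56), and in KO 9 rose and 1, Nlrc5, fell (-0.42). Of all genes, IL-4 raised 8.49% in WT and 12.2% in KO, and lowered 7.95% and 11.4%. Of 13 interferon gamma associated genes 11 were tested. With IL-4, 1 rose (Irf1) and 4 fell in each genotype, Cxcl10 with log2 -1.98 in WT and -2.78 in KO. Between the genotypes 0 of 11 passed by edgeR in either state, with 6 at an unadjusted p below 0.05 without IL-4 and 4 with it (DESeq2 called 0 and 1), and their median log2 fold changes were -0.20 and -0.23. Within the sets, Gbp3 (-0.98) was lower in KO in replicates 1-3 without IL-4, and in replicates 4-6 with IL-4 Irf1 was higher and 1 gene was lower. Irf1 is also in the list of class II factors and Nlrc5 in the class I list. Ifng itself had 0 counts in all 24 libraries. Of 4 genes of class II turnover and the class II region 2 were tested. March8, a ubiquitin ligase, rose with IL-4 by a log2 value of 0.25 in WT and 0.24 in KO, and March1 had -0.10 and 0.07.

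Markers of other cells that carry class II moved with some of these values. Of 10 B cell markers the summed level was 37.1 to 87.0 CPM in WT M0, 39.6 to 71.0 in WT M2, 31.2 to 40.5 in KO M0 and 32.1 to 41.8 in KO M2. Cd22 (5389 counts over all libraries) and Ighm (3583) held most of that sum. Ighm was at 45.2 and 45.1 CPM in WT M0 replicates 1 and 2, and at 10.3 to 15.6 in WT M0 replicates 3-6. In WT M2 it was at 21.8 and 20.5 in replicates 1 and 2 and at 4.27 to 8.24 in the others. Within each state the WT libraries with the highest Cd74 and class II chain levels were thus also those with the most Ighm. In KO it ran from 15.5 to 23.7 CPM in M0 and from 5.22 to 11.5 in M2, where class II was highest. Cd79a and Pax5, which define B cells, were at 0 in 2 and 4 of 24 libraries and never above 0.63 CPM. Of the 5 B cell markers tested, Cd22 (log2 -0.85) and Ebf1 (-3.29) were lower in KO without IL-4, as were 3.42% of all genes. With IL-4, 0 of 5 passed (4.59% of all genes), with 3 at an unadjusted p below 0.05. Within replicates 1-3 without IL-4, 3 of 5 were lower in KO (4.75% of all genes). The KO difference between the sets passed for 0 of 5 in either state (1.81% and 0.781% of all genes). In the plain difference between the sets, 2 of 5 were lower in replicates 4-6 (1.61% of all genes).

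Of 12 dendritic cell markers the summed level was 20.6 to 27.2 CPM in WT M0, 25.5 to 34.3 in WT M2, 20.9 to 31.9 in KO M0 and 30.05 to 47.1 in KO M2. Clec10a (3080 counts over all libraries) and Cd24a (2450) held most of it, with Batf3 next (813), so the sum mainly follows Clec10a and Cd24a. In KO M2 the sum was lower in replicates 4-6, at 30.05 to 37.2, than in replicates 1-3, at 45.8 to 47.1, where class II had the reverse order. Flt3, Cd209a, Xcr1, Clec9a and Siglech were never above 0.83 CPM, with 0 counts in 5, 16, 2, 1 and 9 libraries. Of the 5 tested, Ccr7 (log2 1.59) and Cd24a (0.70) were higher in KO without IL-4, as were 1.1% of all genes. With IL-4 Cd24a (0.83) was, as were 1.51% of all genes. Of 10 stromal markers 9 were tested, and all 9 were lower in KO in both states and in both sets, with a summed level of 102 to 163 CPM in WT and 7.36 to 21.0 in KO. Of 8 macrophage markers, 1 was higher and 3 lower in KO without IL-4, where 1.1% of all genes were higher and 3.42% lower. With IL-4, 1 was higher and 2 lower, where 1.51% of all genes were higher and 3.09% lower. Lyz2 held most counts of these markers (2232960, next Cd68 with 421945), so their sum mainly follows Lyz2. The summed macrophage markers were at 15642 to 19293 CPM in WT M0 replicates 1-3 and 14688 to 15481 in replicates 4-6, against 12067 to 13744 and 14487 to 15071 in KO M0, so that without IL-4 they too were lower in replicates 4-6 of WT and higher in replicates 4-6 of KO. With IL-4 the sets overlapped, at 14326 to 18173 and 14173 to 14793 in WT M2 and at 12188 to 14704 and 13375 to 13852 in KO M2. Without IL-4, 2 of the 8 macrophage markers passed the test of the difference between the sets by edgeR, both higher, Lyz2 (log2 0.58, edgeR adjusted p = 0.0498) among them, with 5 at an unadjusted p below 0.05 and 3 called by DESeq2. Of all genes, 1.81% passed that test by edgeR and 0.672% were higher. With IL-4 0 of 8 passed by edgeR, with 1 at an unadjusted p below 0.05 and 1 called by DESeq2. The part of these markers in the class II differences was not tested.

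Of 9568 genes ranked (mean log2 CPM 2 or more, with unnamed Gm and Rik models left out), the 5 whose level across the 24 libraries was most like the mean of H2-Aa, H2-Ab1, H2-Eb1 and Cd74 were Cdc42ep2, Mfge8, Dcstamp, Stac2 and Armc7, with Pearson's r of 0.88, 0.88, 0.88, 0.83 and 0.83. Mfge8 encodes a bridging protein for the uptake of apoptotic cells, and Dcstamp a membrane protein needed for the fusion of osteoclasts and macrophages. Mfge8 ran from 207 to 490 CPM in WT M0 and reached 1096 CPM in KO M2 replicate 6. The r values describe libraries that share genotype, treatment and set, and carry no test.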

How the data were processed

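For 24 libraries the authors deposited whole-number expected counts, per the file headers, and GETMM values, a signal in which counts are divided by gene length and scaled between libraries. Each deposited GETMM value equals the count times 1 factor for the gene and 1 for the library, checked on 13047 genes. RSEM 1.3.0 with Bowtie2 2.3.4.1, mm10, CASAVA 2.8.0 and edgeR are named per the submitters' processing notes, without settings. Columns were matched to samples by name, with 0 unmatched.

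The filter filterByExpr (minimum count 10) kept 12797 genes, which held 99.8% of counts. Libraries were scaled by TMM. The test was the robust quasi-likelihood test of edgeR 4.0.16 (R 4.3.3) in 1 fit of 4 groups, with Benjamini-Hochberg adjustment over all genes and a threshold of 0.05. Differences within and between replicates 1-3 and 4-6 came from a fit of 8 groups of 3 libraries, and those within a set were added after seeing the data. Total counts ranged from 7893809 to 13492507, and the chi-square per degree of freedom between libraries of a group was never under 2.66, so no pair was taken for 1 library. Limits for a count of 0 cover counting error only.

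The 10 genes and the 9 other lists were chosen with earlier results of these data known. All 10 genes were named in every comparison, from each other list up to 4 genes with the smallest p, with some others added after their values were seen, and the 5 genes most like the class II chains. Gene positions are from GENCODE M21. Alternatives were DESeq2 1.42.0, limma 3.58.1 on log2(GETMM + 1), RLE size factors, omission of the count filter, a term for the set, a replicate or culture block, each set alone, and leaving out libraries. Values of some genes of the other lists are not reported here.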

Additional observations from a re-analysis of the deposited data

Results flagged for a closer look

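The KO minus WT difference of 5 genes differed between replicates 4-6 and replicates 1-3 by the interaction test, with larger values in replicates 4-6. Without IL-4 the log2 difference was 2.14 for H2-Aa, 2.22 for H2-Ab1, 2.27 for H2-Eb1, 2.15 for Cd74 and 2.12 for Ciita. With IL-4 it was 2.16 for H2-Aa, 2.14 for H2-Ab1, 2.19 for H2-Eb1, 1.96 for Cd74 and 1.84 for Ciita. These edgeR calls lay close to the threshold, and DESeq2 called 5 of 8 genes in each state. Leaving out 1 library, the number of genes called ran from 0 to 5 without IL-4 and from 0 to 6 with it.

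In 2 of 40 groups of 6 libraries the highest value lay far from the others by Dixon's criterion, and chance gives about 1 in 20 such groups. H2-Oa was at 0.485 CPM in WT M2 replicate 2, with the next library at 0.125, which is 6 counts against 1. H2-Ob was at 0.558 CPM in WT M2 replicate 1, with the next at 0.203, which is 5 counts against 2.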

How the results depend on the processing

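The number of the 8 genes called stayed within 1.5 times the reported value in 81 of 100 counts over the alternatives other than leaving out 1 library. For KO against WT without IL-4 (1 gene) the count was 0 with no count filter, with a term for the set, with the replicate number as a block and in replicates 1-3 alone, 2 with DESeq2 and 5 in replicates 4-6 alone. Over all genes these fits called 562, 689, 666, 433, 723 and 956 in the same order. With IL-4 (0 genes) it was 2 with DESeq2, 1 with limma, 4 without the 3 libraries numbered apart and 6 in replicates 4-6 alone. Over all genes these called 705, 567, 600 and 1056. For IL-4 (3 genes in each genotype) it was 7 with the culture number as a block in WT and 7 in KO, and 6 for KO in replicates 4-6 alone. Within replicates 1-3 the IL-4 count became 1 in WT without the 3 libraries and 7 in KO with no filter, and within replicates 4-6 it became 5 in WT and 7 in KO with no filter and 2 in WT without the 3 libraries. The KO difference between the sets with IL-4 fell from 5 genes to 1 without the 3 libraries. The cause of these changes was not tested.

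Leaving out 1 library gave 0 to 2 genes for KO without IL-4, 0 to 4 with IL-4, 0 to 5 and 0 to 6 for the difference between the sets without and with IL-4, 2 to 7 and 3 to 7 for IL-4 in WT and KO within replicates 1-3, and 0 to 2 for IL-4 in WT within replicates 4-6. For KO without IL-4 it was 0 without any 1 of WT M0 replicates 1 and 3-6 or KO M0 replicates 4-6, and 2 without WT M0 or WT M2 replicate 2 or KO M0 replicate 2 or 3. With IL-4 it was 4 without WT M2 replicate 2 and 1 without KO M0 replicate 2.

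Signs turned only for values that did not pass in the fits of the report. In replicates 1-3 alone the KO log2 values without IL-4 were -0.44 for H2-DMb2, -0.067 for H2-Ab1, -0.29 for Ciita, -0.24 for H2-DMa and -0.10 for Cd74, and with IL-4 -0.20 for H2-DMb1 and -0.12 for H2-DMa. In replicates 4-6 alone H2-DMb2 was at -0.13 for IL-4 in KO and 0.39 for KO with IL-4, and H2-DMb1 at 0.036 for KO without IL-4. H2-DMb2 was at 0.034 with limma for KO with IL-4. Within replicates 1-3 and with IL-4, Cd74 was at 0.0027 with RLE, 0.020 with no filter, 0.0040 with DESeq2 and 0.40 without the 3 libraries, and H2-DMa at 0.0038 without them. Without IL-4, H2-Aa was at -0.14 and H2-Eb1 at -0.042 without them.

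Leaving out 1 library, the KO values within replicates 1-3 without IL-4 ran from -0.38 to 0.15 for Cd74, -0.13 to 0.47 for H2-Aa, -0.40 to 0.18 for H2-Ab1, -0.88 to 0.072 for H2-DMb2 and -0.040 to 0.62 for H2-Eb1. With IL-4 they ran from -0.32 to 0.40 for Cd74, -0.072 to 0.42 for Ciita, -0.25 to 0.42 for H2-Aa, -0.32 to 0.49 for H2-Ab1, -0.28 to 0.038 for H2-DMa and -0.21 to 0.65 for H2-Eb1. Within replicates 4-6 they ran from -0.075 to 0.14 for H2-DMb1 without and from -0.044 to 1.96 for H2-DMb2 with IL-4. Over 6 libraries they ran from -0.026 to 0.11 for H2-DMa without IL-4, and from -0.013 to 0.12 for H2-DMb1 and -0.28 to 0.12 for H2-DMb2 with it. H2-DMb2 ran from -0.090 to 0.36 for IL-4 in KO.

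Culture numbers in the labels are shared by 1 M0 and 1 M2 library, and 8 of 12 such pairs had deviations from their group means correlated above 0.1, the lowest at -0.045. The labels do not say that these numbers pair the samples, and the main fit did not use them. Correlations of this size do not decide whether the numbers mark pairs. The median correlation was 0.129 for these pairs and -0.040 for other cultures of the same genotype, with 10 of 60 above 0.1. Of 24 libraries, 13 correlated best with their own partner. H2-Aa, H2-Ab1, H2-Eb1, Cd74, Ciita and H2-DMa were higher with IL-4 in 12 of 12 such pairs, H2-DMb1 in 11 and H2-DMb2 in 6. Under this block 7 of 8 genes were called in each IL-4 comparison (20.5% and 26.9% of all genes). With the replicate number as a block 2 of 8 were called for IL-4 in WT, 3 in KO and 0 in each genotype comparison, with a median correlation of 0.0045 between same-numbered libraries of the other genotype. Low counts limit H2-DMb2, H2-Oa and H2-Ob. In the genotype comparisons over 6 libraries a group, the spread within a group includes any difference between the sets. What limits those comparisons was not tested.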
